A study of Mus musculus with 9 samples.

Results

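The genes described here are 32 genes of Sertoli cell identity and of what Sertoli cells secrete or build, chosen by gene symbol. They were chosen with earlier results of these data known, so their counts beside those of all genes are descriptive. Of the 32, 29 were read by at least 1 probe set annotated to that gene alone, out of 18193 genes measured in that way in the whole series. All 29 were detected, that is, their log2 signal was at least 5 (a signal of 32) on at least 1 array, as were 16170 of the 18193 genes. The remaining 3 members are not analysed here on their own. The probe set for Trf, the iron carrier transferrin, is shared in the annotation with Srprb, that for Prnd, which encodes the prion-like protein doppel, is shared with Prn, and Nedd9, an adhesion scaffold gene, is not listed in it.

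RNA of whole testes was measured on Affymetrix mouse expression arrays, 1 array a sample, for 4 wild-type (WT) and 5 Tmem203 null samples. All mice were of the C57BL/6J strain, 24 weeks old and untreated. In the null allele the start codon of Tmem203 and part of its leader are replaced and a single FRT recombination site stays behind, while the WT samples carry no targeted allele, so the gene is disrupted, and not removed whole, in every cell of the null testis and not in Sertoli cells alone. Tmem203 encodes a small membrane protein of the endoplasmic reticulum linked to calcium, and the study compared the testes because null males are infertile. Left and right testes were harvested apart, and the labels do not say whether each array holds another animal, so each p reflects the variation among these samples, which may be technical.

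Sertoli cells are the somatic cells of the seminiferous tubule. They surround the germ cells, receive follicle-stimulating hormone and testosterone, close the tubule with junctions, and supply germ cells with growth factors, binding proteins, proteases and protease inhibitors. Their identity is set up in the fetal gonad by Sox9 and its partners, and their adult products differ from those of the immature cell, which secretes anti-Mullerian hormone and contains keratins. In a whole testis, a change in the number or share of cells of a type and a change in RNA per cell cannot be told apart. This holds for rises as well as for falls. The paper reports lighter null testes and a reduced population of condensed haploid germ cells. The part of these in the values below was not tested.

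The targeted gene itself went with the labels. Tmem203 had log2 signals of 9.67, 9.91, 9.93 and 9.71 in the 4 WT samples and of 9.10, 9.13, 9.13, 9.06 and 9.10 in the 5 null samples, with no overlap. Tmem203 was lower by a log2 fold change (null minus WT) of -0.70 (SE 0.06, adjusted p = 0.000287, limma). Where this probe set lies relative to the replaced bases is not known here, so the remaining signal of the null samples says nothing about the protein.

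As a group the Sertoli cell genes were higher in the null testes. Of the 29 detected members, 15 were higher and 1 was lower at an adjusted p under 0.05, and 13 did not pass. Over all 16170 detected genes the same test called 11.8%, with 6.51% higher and 5.31% lower. The 15 higher members were Sox9, Sox8, Wt1, Gata4, Rhox5, Kitl, Shbg, Clu, Ctsl, Cst12, Eppin, Serpina5, Vim, Tubb3 and Mro, and the lower one was Krt8. In 16 members the lowest null sample exceeded the highest WT sample, against 8.71% of all detected genes, and in 1 member the order was the opposite, against 9.66%. Changes were small. The log2 fold changes ran from -0.35 to 0.65 with a median of 0.30, 26 of 29 lay above 0, and for all detected genes the median was -0.015 with 45.9% above 0. Only Sox8 and Shbg also reached a 1.5-fold change, the further threshold of the study's methods, which 2.03% of all detected genes reached together with the adjusted p.

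The number of members that passed depended on single arrays. The share of all detected genes that passed in the same fit is given in brackets. Without null replicate 1 the members that passed were 9 (7.1%). They were 10 without WT replicate 1 (8.77%), WT replicate 2 (7.01%), WT replicate 4 (10.4%), null replicate 3 (7.7%), null replicate 4 (7.59%) or null replicate 5 (6.83%). Without null replicate 2 there were 13 (10.4%) and without WT replicate 3 there were 17 (12.4%). With each array centred on its median there were 10 (11.3%), and Wt1, Gata4, Rhox5, Kitl, Clu and Cst12 were the members that no longer passed. Sox9, Shbg, Ctsl, Eppin, Serpina5, Vim, Krt8 and Mro passed whichever array was left out.

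**Figure D1:**
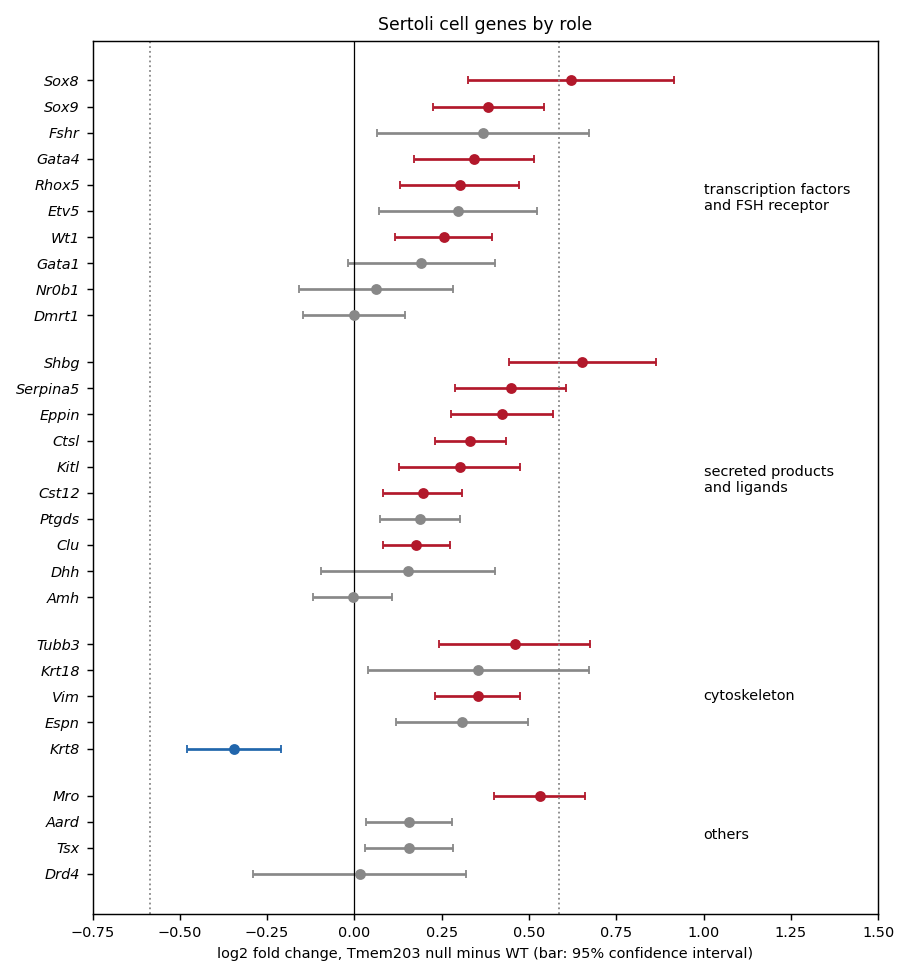
Log2 fold changes (null minus WT) of the 29 detected Sertoli cell genes, ordered by role and size. Points are limma estimates, bars are 95% confidence intervals, red and blue mark genes higher or lower at an adjusted p under 0.05, grey marks the others, and dotted lines mark a 1.5-fold change. Sox8 at 0.62 and Shbg at 0.65 lie past the dotted line, and Krt8 at -0.35 is alone on the left among the coloured points.

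Promoter sequences are given for 4 members. Of the 23 members with a window, 3 held a match to the half-site of the androgen receptor, against 16.1% of all windows. They were Shbg, Rhox5 and Serpina5. Testosterone acts on Sertoli cells through this receptor. Krt8 is the member that was lower. The sequences are the 250 bases before the RefSeq start of each gene in GRCm38.p6, 5′ to 3′ on the strand of the gene, at chr11:69617906-69618155 (minus strand) for Shbg, chrX:37754358-37754607 (plus) for Rhox5, chr12:104100863-104101112 (plus) for Serpina5 and chr15:102004343-102004592 (minus) for Krt8. Capitals mark matches, on either strand, to the androgen receptor half-site AGAACA, the SOX motif AACAAT, the GATA motif AGATAA or the TATA box TATAAA.
Shbg: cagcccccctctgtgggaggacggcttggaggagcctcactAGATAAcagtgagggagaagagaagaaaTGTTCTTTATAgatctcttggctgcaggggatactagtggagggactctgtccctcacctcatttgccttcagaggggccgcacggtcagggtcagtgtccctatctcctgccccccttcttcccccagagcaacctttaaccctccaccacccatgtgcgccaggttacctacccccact
Rhox5: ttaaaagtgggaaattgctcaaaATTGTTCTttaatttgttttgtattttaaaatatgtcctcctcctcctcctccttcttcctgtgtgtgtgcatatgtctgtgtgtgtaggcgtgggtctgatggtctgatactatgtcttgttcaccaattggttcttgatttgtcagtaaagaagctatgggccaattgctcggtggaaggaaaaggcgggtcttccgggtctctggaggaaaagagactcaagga
Serpina5: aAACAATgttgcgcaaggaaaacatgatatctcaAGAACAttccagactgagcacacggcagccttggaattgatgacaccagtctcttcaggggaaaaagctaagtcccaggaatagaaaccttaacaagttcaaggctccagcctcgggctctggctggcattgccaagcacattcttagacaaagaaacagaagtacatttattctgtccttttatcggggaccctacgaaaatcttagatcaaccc
Krt8: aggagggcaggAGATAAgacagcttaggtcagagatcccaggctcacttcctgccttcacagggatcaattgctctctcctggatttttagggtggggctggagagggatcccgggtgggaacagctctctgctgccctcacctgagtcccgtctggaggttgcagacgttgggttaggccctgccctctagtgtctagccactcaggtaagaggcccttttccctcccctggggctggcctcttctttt
In Shbg the half-site and the TATA match share a base, and in Rhox5 the SOX match overlaps the half-site.

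A window was at hand for 23 of the 32 members. The androgen half-site was present in 3 of the 23, and in 16.1% of 32851 promoter windows of the same length. Ctsl, Rhox5 and Serpina5 held the SOX motif, which 9.42% of all windows held. Krt8 and Shbg held the GATA motif, found in 9.99% of windows. The TATA match was seen in Kitl, Nedd9, Nr0b1, Shbg and Vim and in 12.4% of windows. The cyclic AMP response element TGACGTCA, the target of the pathway that follicle-stimulating hormone starts, was in none of the 23 and in 1.55% of windows. Such matches are letters in a window and not measured sites.

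Among the transcription factors and the receptor for follicle-stimulating hormone, 5 of 10 members were higher and 5 did not pass, with a median log2 fold change of 0.30. Both SOX factors were higher. Sox9, the factor that starts and keeps Sertoli cell fate, had log2 signals of 10.46, 10.29, 10.31 and 10.41 in WT replicates 1 to 4 and of 10.94, 10.63, 10.66, 10.76 and 10.77 in null replicates 1 to 5. All null samples lay above all WT samples, with null replicate 1 the highest. Sox9 rose by a log2 fold change of 0.38 (SE 0.07, adjusted p = 0.0108). Its other detected probe set gave 0.39 and did not pass (adjusted p = 0.0981). Sox8, its close relative, which can stand in for part of its work in the adult tubule, gave 8.88, 8.56, 8.56 and 8.94 in WT and 9.52, 9.05, 9.32, 9.21 and 9.67 in null samples. The groups again did not overlap, although both spread more than for Sox9. Sox8 rose by 0.62 on the log2 scale (SE 0.13, adjusted p = 0.0205), which is 1.54-fold, and its adjusted p was 0.053 without null replicate 1 and 0.0674 without WT replicate 2.

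Wt1 and Gata4 act upstream of Sox9 in the fetal gonad and stay on in adult Sertoli cells. For Wt1 the log2 signals were 10.44, 10.37, 10.64 and 10.42 in WT and 10.77, 10.72, 10.68, 10.76 and 10.69 in null samples. WT replicate 3 came close to the null samples and the other WT samples lay well below. Wt1 rose by 0.26 on the log2 scale (SE 0.06, adjusted p = 0.0351). This call was kept without WT replicate 3 (adjusted p = 0.00648) and lost without any other array, with adjusted p up to 0.0987. Gata4 read 9.13, 9.15, 9.37 and 9.07 in WT and 9.64, 9.43, 9.52, 9.63 and 9.41 in null samples, without overlap. Gata4 rose by 0.34 on the log2 scale (SE 0.08, adjusted p = 0.0256), and its second probe set gave 0.38 (adjusted p = 0.0066). With the first probe set the call was lost in 6 of 9 runs that left out an array, with adjusted p up to 0.0731, and kept without null replicate 2, WT replicate 3 or null replicate 5.

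Rhox5 is an X-linked homeobox gene that androgen switches on in Sertoli cells. The match to the half-site in the sequence above is a match of letters, not a measured site. It gave log2 signals of 10.91, 10.94, 11.05 and 10.68 in WT and 11.23, 11.11, 11.16, 11.16 and 11.30 in null samples, again with no overlap, WT replicate 4 being the lowest. Rhox5 rose by 0.30 on the log2 scale (SE 0.08, adjusted p = 0.0402), a call kept only without WT replicate 3 among the 9 runs, with adjusted p up to 0.096 in the others.

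The other 5 members of this group did not pass. Gata1, a GATA factor of Sertoli cells that is better known from blood, read 9.08, 9.29, 9.42 and 9.15 in WT and 9.70, 9.31, 9.37, 9.42 and 9.33 in null samples. Apart from null replicate 1 the groups overlapped, and the log2 fold change was 0.19 (95% interval -0.02 to 0.40, adjusted p = 0.262). Nr0b1, the nuclear receptor DAX1 that works against male fate when in excess, had log2 signals of 9.68, 9.81, 10.03 and 9.69 in WT and 10.15, 9.73, 9.83, 9.84 and 9.78 in null samples. Null replicate 1 was the highest here too, and the difference was 0.06 on the log2 scale (95% interval -0.16 to 0.28, adjusted p = 0.752). Dmrt1 keeps Sertoli cells from turning to the ovarian fate and is also made by spermatogonia. Its log2 signals were 9.97, 10.05, 10.18 and 9.87 in WT and 10.09, 10.01, 9.99, 10.01 and 9.98 in null samples. The null samples lay inside the range of WT, and the 95% interval of the difference ran from -0.15 to 0.15 (adjusted p = 0.993).

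Etv5, an ETS factor that the spermatogonial niche needs and that spermatogonia also make, gave 10.12, 9.69, 9.89 and 10.22 in WT and 10.33, 10.25, 10.29, 10.37 and 10.15 in null samples. WT replicates 2 and 3 were low and replicate 4 reached into the null range. With this probe set Etv5 had a log2 fold change of 0.30 (adjusted p = 0.112), while its other detected probe sets gave 0.40 (adjusted p = 0.0338) and -0.02 (adjusted p = 0.888). Fshr, the receptor through which follicle-stimulating hormone reaches Sertoli cells, had log2 signals of 6.87, 7.11, 7.09 and 6.49 in WT and 7.57, 7.11, 7.25, 7.26 and 7.11 in null samples. The groups met at 7.11, and Fshr had a log2 fold change of 0.37 (95% interval 0.07 to 0.67, adjusted p = 0.136).

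**Figure D2:**
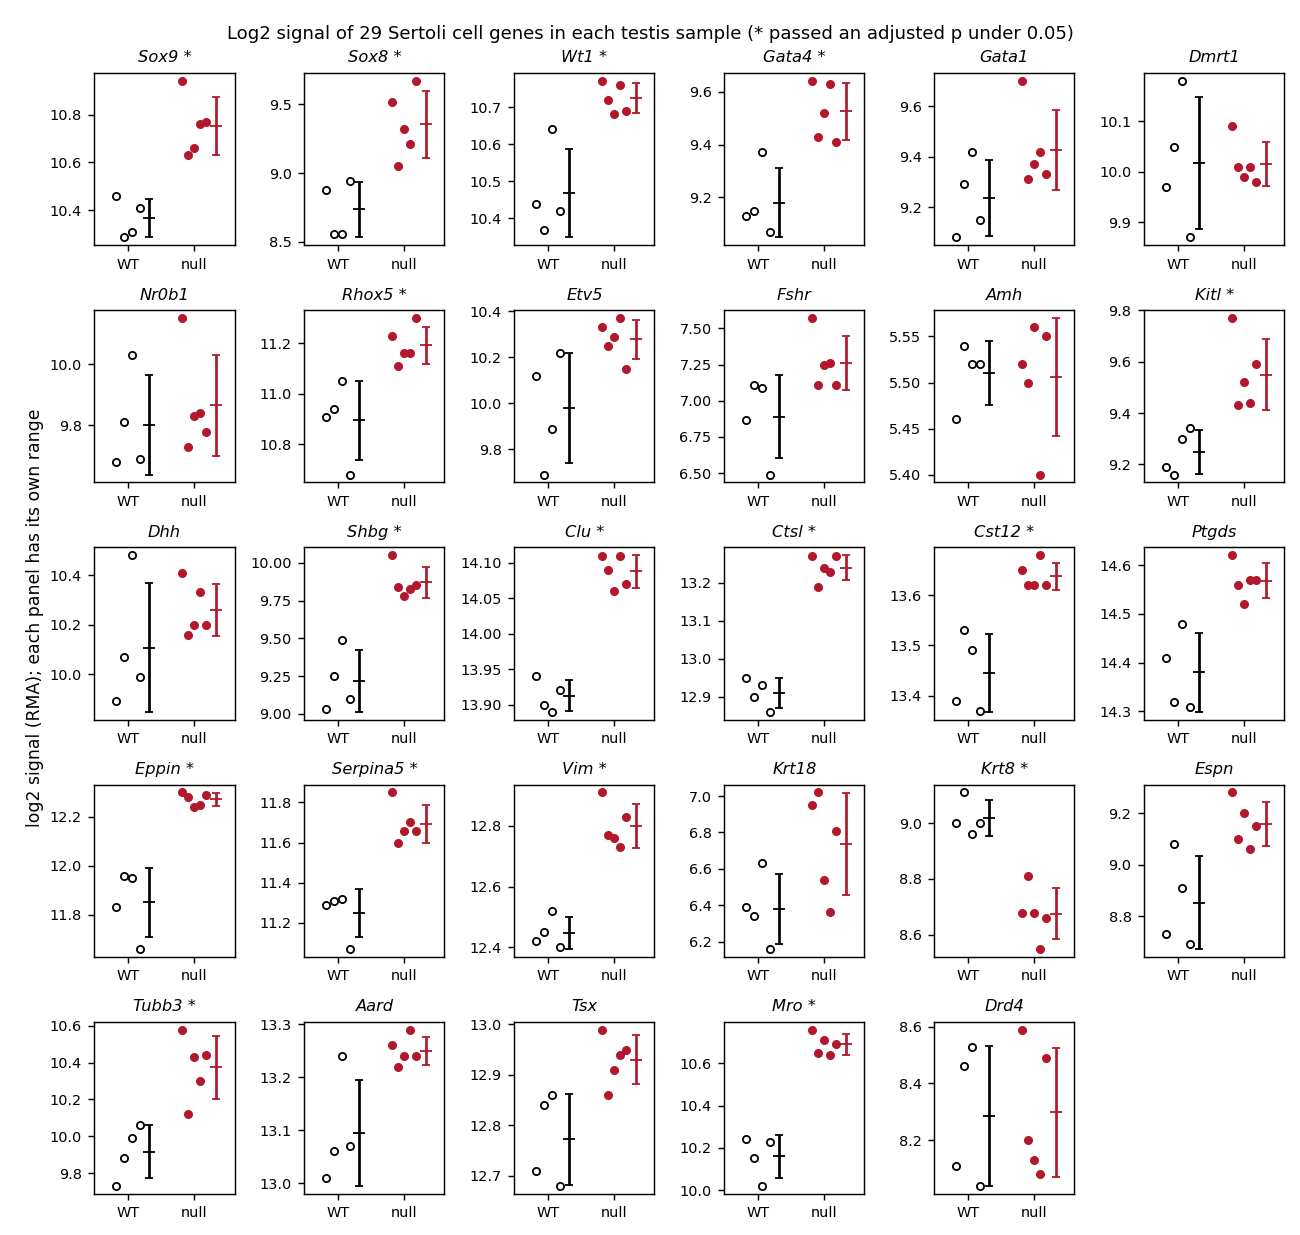
Log2 signals of the 29 detected Sertoli cell genes in each sample, 1 panel a gene with its own vertical range. Open points are the 4 WT and filled points the 5 null samples in the order of their replicate numbers, bars give the mean ± SD, and a star marks an adjusted p under 0.05. In the panels of Shbg, Ctsl, Eppin, Serpina5 and Mro all null samples sit above all WT samples, null replicate 1 standing above the other null samples for Shbg and Serpina5, and in the panel of Krt8 they sit below.

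Of the 10 secreted products and ligands, 7 were higher, 3 did not pass and none was lower, with a median log2 fold change of 0.25. Shbg had the largest difference of all members. In the testis this gene encodes the androgen-binding protein that Sertoli cells release into the tubule. Its log2 signals were 9.03, 9.25, 9.49 and 9.10 in WT and 10.05, 9.84, 9.78, 9.83 and 9.85 in null samples. The lowest null sample lay above the highest WT sample, and null replicate 1 stood above the other null samples. Shbg rose by 0.65 on the log2 scale (SE 0.095, adjusted p = 0.00332), or 1.57-fold.

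A pair of protease inhibitors rose. Serpina5, the protein C inhibitor without which male mice are infertile, gave log2 signals of 11.29, 11.31, 11.32 and 11.07 in WT and 11.85, 11.60, 11.66, 11.70 and 11.66 in null samples. WT replicate 4 was low and null replicate 1 high, and no samples overlapped. Serpina5 rose by 0.45 on the log2 scale (SE 0.07, adjusted p = 0.00517). Eppin, a sperm-coating inhibitor made by Sertoli cells and by the epididymis, read 11.83, 11.96, 11.95 and 11.66 in WT and 12.30, 12.28, 12.24, 12.25 and 12.29 in null samples. The null samples spread far less than the WT samples, and the groups were apart. Eppin rose by 0.42 on the log2 scale (SE 0.07, adjusted p = 0.00463).

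Among proteases and their inhibitors, Ctsl and Cst12 were higher too. Ctsl encodes cathepsin L, which Sertoli cells secrete at set stages of the tubule cycle. Its log2 signals were 12.95, 12.90, 12.93 and 12.86 in WT and 13.27, 13.19, 13.24, 13.23 and 13.27 in null samples, both groups tight. Ctsl rose by 0.33 on the log2 scale (SE 0.05, adjusted p = 0.00258), and its second probe set gave 0.13 (adjusted p = 0.603). Cst12 is a cystatin-related gene of Sertoli cells. It had log2 signals of 13.39, 13.53, 13.49 and 13.37 in WT and 13.65, 13.62, 13.62, 13.68 and 13.62 in null samples. The gap between the groups was small beside the spread of WT, and Cst12 rose by 0.20 on the log2 scale (SE 0.05, adjusted p = 0.0459). That call was kept without WT replicate 2 or 3 and lost without any other array, with adjusted p up to 0.102.

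Clu, which encodes the chaperone clusterin, a main secreted protein of the rodent Sertoli cell, had log2 signals of 13.94, 13.90, 13.89 and 13.92 in WT and 14.11, 14.09, 14.06, 14.11 and 14.07 in null samples. Both groups were tight and apart. Clu rose by 0.18 on the log2 scale (SE 0.04, adjusted p = 0.0354). Its call was lost in each of the 9 runs that left out an array, with adjusted p up to 0.0832, and of its other probe sets 1 passed (0.21, adjusted p = 0.0265) and 2 did not (0.13 and 0.12, adjusted p = 0.131 and 0.384). The signals of Clu lie near the upper end of these arrays, where the highest mean of any detected gene was 14.78.

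Kitl is the ligand that Sertoli cells present to Kit on differentiating spermatogonia. Its log2 signals were 9.19, 9.16, 9.30 and 9.34 in WT and 9.77, 9.43, 9.52, 9.44 and 9.59 in null samples, with null replicate 1 the highest. Kitl rose by 0.30 on the log2 scale (SE 0.08, adjusted p = 0.0432). It was called without null replicate 2 and not without any other array, where adjusted p reached 0.121. Of its other 3 probe sets, 1 passed at 0.32 (adjusted p = 0.044) and 2 did not, at 0.34 and 0.42 (adjusted p = 0.114 and 0.0816).

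The 3 remaining products did not pass. Ptgds, the lipocalin-type prostaglandin D synthase, averaged 14.38 ± 0.08 (SD, n = 4) in the WT and 14.57 ± 0.04 (SD, n = 5) in the null samples on the log2 scale. Its groups did not overlap, the log2 fold change was 0.19 (adjusted p = 0.0559, and 0.0273 without WT replicate 3), and a second probe set passed at 0.31 (adjusted p = 0.0395). Like Clu, the first Ptgds probe set lies near the highest mean on these arrays. Dhh, the hedgehog ligand that Sertoli cells send to Leydig and peritubular cells, averaged 10.11 ± 0.26 in WT and 10.26 ± 0.11 in null samples. Dhh had a log2 fold change of 0.15 (95% interval -0.10 to 0.40, adjusted p = 0.455) with this probe set and of -0.06 (adjusted p = 0.667) with the other. Without WT replicate 3, which had the highest Dhh signal of all 9 samples at 10.48, the adjusted p was 0.0471. Amh, the hormone of the immature Sertoli cell that regresses the Mullerian duct, read between 5.46 and 5.54 in WT and between 5.40 and 5.56 in null samples, close to the detection limit. Its log2 fold change was -0.01 (95% interval -0.12 to 0.11, adjusted p = 0.964).

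The cytoskeletal members did not all go one way. Of 5, Vim and Tubb3 were higher, Krt8 was lower and Krt18 and Espn did not pass, with a median log2 fold change of 0.35. Vim encodes vimentin, the intermediate filament protein of the adult Sertoli cell. It had log2 signals of 12.42, 12.45, 12.52 and 12.40 in WT and 12.91, 12.77, 12.76, 12.73 and 12.83 in null samples, all null samples above all WT samples. Vim rose by 0.35 on the log2 scale (SE 0.055, adjusted p = 0.00462), and its other probe sets passed at 0.42 and 0.45. Tubb3, a beta tubulin better known from neurons, gave 9.73, 9.88, 9.99 and 10.06 in WT and 10.58, 10.12, 10.43, 10.30 and 10.44 in null samples. Null replicate 2 was close to the highest WT sample. Tubb3 rose by 0.46 on the log2 scale (SE 0.10, adjusted p = 0.0195), and its adjusted p was 0.0591 without WT replicate 2 and 0.0524 without null replicate 5.

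Krt8 and Krt18 encode the keratin pair of simple epithelia, which Sertoli cells contain before puberty. Krt8 had log2 signals of 9.0, 9.11, 8.96 and 9.0 in WT and 8.68, 8.81, 8.68, 8.55 and 8.66 in null samples. All null samples lay below all WT samples. Krt8 was lower by a log2 fold change of -0.35 (SE 0.06, adjusted p = 0.00862), or 1.27-fold, and its other probe sets passed at -0.38 and -0.35. Krt18 did not follow, at 6.38 ± 0.19 in WT and 6.74 ± 0.28 in null samples (log2 fold change 0.355, 95% interval 0.04 to 0.67, adjusted p = 0.169). Whether the pair differed from each other was not tested. Espn, whose product espin bundles actin at the ectoplasmic specialization where Sertoli cells hold spermatids, averaged 8.85 ± 0.18 in WT and 9.16 ± 0.09 in null samples, a log2 fold change of 0.31 (adjusted p = 0.0544), and passed without WT replicate 2 (adjusted p = 0.0233).

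Mro had the smallest p of all members. It encodes maestro, a nuclear protein first known from male-biased transcription in the fetal gonad. Its log2 signals were 10.24, 10.15, 10.02 and 10.23 in WT and 10.76, 10.65, 10.71, 10.64 and 10.69 in null samples. The null samples spread little and lay well above WT, and Mro rose by 0.53 on the log2 scale (SE 0.06, adjusted p = 0.000836). The other members of no common role did not pass. Aard, an alanine- and arginine-rich gene of Sertoli cells, averaged 13.09 ± 0.10 in WT and 13.25 ± 0.03 in null samples (log2 fold change 0.16, adjusted p = 0.126, and 0.0278 without WT replicate 3). Tsx, an X-linked testis gene, averaged 12.77 ± 0.09 and 12.93 ± 0.05 (log2 fold change 0.16, adjusted p = 0.132). Drd4, a dopamine receptor gene, averaged 8.29 ± 0.25 and 8.30 ± 0.23, with a log2 fold change of 0.01 (95% interval -0.29 to 0.32, adjusted p = 0.963), and its other probe set gave -0.12 (adjusted p = 0.463).

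Set side by side, the regulators and the products had much the same median. The transcription factors and receptor had 5 of 10 members higher and a median log2 fold change of 0.30, and the secreted and cytoskeletal products together had 9 of 15 higher, 1 lower and a median of 0.31. The counts differed more by the methods' t-test after Benjamini-Hochberg adjustment. By that test 1 of the 10 and 9 of the 15 passed, beside 7.71% of all detected genes. The difference between these groups was not tested, since genes are not replicates.

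In all, the members were read by 48 single-gene probe sets, of which 47 were detected, 22 were higher and 3 were lower at an adjusted p under 0.05. Of all 29238 detected single-gene probe sets, 5.7% were higher and 4.23% lower by the same test. The 3 lower ones are those of Krt8. Among 11 members with several detected probe sets, 8 had the same sign in all of them, and Etv5, Dhh and Drd4 did not.

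**Figure D3:**
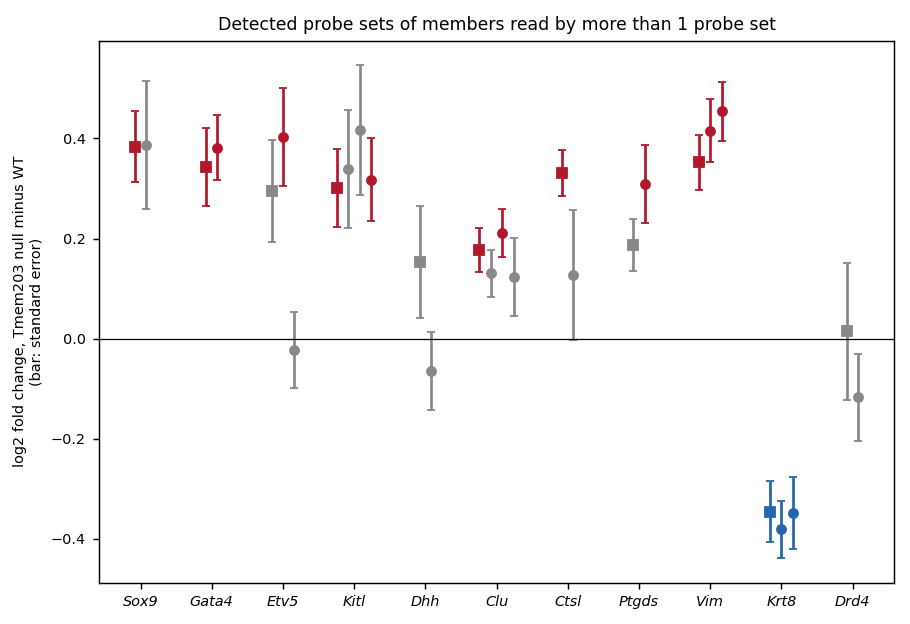
Log2 fold changes (null minus WT) of every detected single-gene probe set of the 11 members that have more than 1. Squares are the probe sets with the highest mean signal, circles the others, bars are standard errors, and red and blue mark an adjusted p under 0.05. The probe sets of Vim lie between 0.35 and 0.45 and those of Krt8 between -0.38 and -0.35, while those of Etv5, Dhh and Drd4 fall on both sides of 0.

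By array, the members stood highest in null replicate 1. The median member lay 0.36 above its WT mean in null replicate 1 on the log2 scale, and 0.22, 0.27, 0.24 and 0.22 above it in null replicates 2 to 5. In WT replicates 1 to 4 the median member lay at -0.03, 0.01, 0.09 and -0.08. Null replicate 1 was the highest null sample in 19 of the 29 members, against 27.3% of all detected genes, and the lowest in 0 of them. Null replicate 2 was the lowest null sample in 13 (19.6% of all genes), WT replicate 3 was the highest WT sample in 15 (31.4%) and WT replicate 4 the lowest in 14 (30.1%). The medians of whole arrays lay between 6.96 and 7.05.

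**Figure D4:**
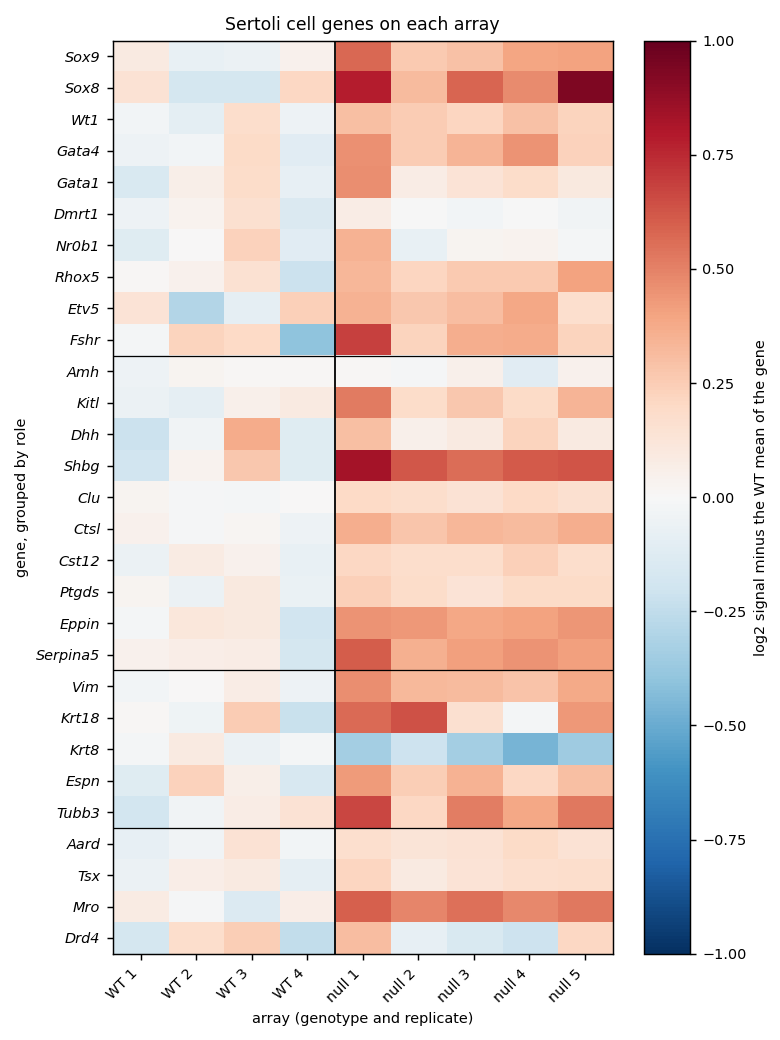
Log2 signal of each Sertoli cell gene on each of the 9 arrays, minus the mean of that gene over the 4 WT arrays. Rows are genes grouped by role with black lines between the groups, the black vertical line parts WT from null arrays, and red is higher and blue lower. Null replicate 1 is the most red column, with a median of 0.36, and Krt8 is the row that turns blue on every null array.

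A further list held 23 genes of adult Sertoli cells. Of these 23, all outside the 32 members, 19 were detected, 4 were higher, 2 were lower and 13 did not pass, and their median log2 fold change was 0.14. Over all detected genes 6.51% were higher and 5.31% lower. Gja1, which encodes the main connexin of the tubule's gap junctions, averaged 12.49 ± 0.13 in WT and 12.81 ± 0.08 in null samples and rose by 0.32 on the log2 scale (adjusted p = 0.0228). Among its other detected probe sets, those at 0.24 and 0.29 passed (adjusted p = 0.0491 and 0.0318). Those at 0.27, 0.21 and 0.06 did not (adjusted p = 0.0528, 0.0813 and 0.771). Nr2f2, the nuclear receptor COUP-TFII, averaged 9.496 ± 0.20 and 9.99 ± 0.11 and rose by 0.50 (adjusted p = 0.0131). Nr2f2 is better known from interstitial cells of the testis than from Sertoli cells, and its other 5 detected probe sets gave 0.06 to 0.32 without passing. Cldn3, a tight junction claudin of the blood-testis barrier, averaged 9.20 ± 0.13 in WT and 8.84 ± 0.05 in null samples and fell, with a log2 fold change of -0.355 (adjusted p = 0.0103), and 2 of its other 3 probe sets passed in the same direction. Fgf2, a growth factor gene, averaged 5.94 ± 0.22 and 5.45 ± 0.16 and fell, with a log2 fold change of -0.50 (adjusted p = 0.0247). The null signals of Fgf2, from 5.26 to 5.64, were close to the detection limit. The remaining genes that passed, named after their values were seen, were the barrier claudin Cldn11 at 0.27 (adjusted p = 0.0257) and the inhibin subunit Inha at 0.25 (adjusted p = 0.0345). Cldn3 and Nr2f2 passed whichever array was left out. With an array left out, Cldn11 passed in 5 of 9 runs, Gja1 in 4, Fgf2 in 3 and Inha in 1, with adjusted p up to 0.0685, 0.0696, 0.0674 and 0.0819.

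Genes that decide the fate of the supporting cell in the fetal gonad, on the testis and on the ovary side, showed no common direction. Of 20, 18 were detected, 4 were higher, 1 was lower and 13 did not pass, with a median log2 fold change of -0.03. Over all detected genes 6.51% were higher and 5.31% lower. Fst, the activin-binding follistatin, averaged 6.75 ± 0.21 in WT and 7.97 ± 0.09 in null samples and rose by 1.22 on the log2 scale (adjusted p = 9.38e-05), while its second probe set gave 0.27 (adjusted p = 0.0723). Esr1, the estrogen receptor alpha gene, averaged 8.90 ± 0.23 and 9.43 ± 0.14 and rose by 0.52 (adjusted p = 0.0169). Its other probe sets gave 0.61 (adjusted p = 0.00383) and -0.28 (adjusted p = 0.136). Nr5a1, the steroidogenic factor gene of Sertoli and Leydig cells, averaged 8.78 ± 0.12 and 9.16 ± 0.18 and rose by 0.37 (adjusted p = 0.0394), and its second probe set gave 0.04. Six4, a homeobox gene upstream of Sry, averaged 6.32 ± 0.14 and 5.61 ± 0.24 and fell, with a log2 fold change of -0.71 (adjusted p = 0.0065). The null signals of Six4, from 5.40 to 5.87, were close to the detection limit. The fifth gene that passed, named after its values were seen, was the receptor Fgfr2 at 0.57 (adjusted p = 0.0399), with -0.02 from its other probe set. Fst and Six4 passed whichever array was left out, and Esr1 passed except without WT replicate 2 (adjusted p = 0.0563). Nr5a1 passed in 3 of the 9 runs and Fgfr2 in 2, with adjusted p up to 0.115 and 0.0989.

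Markers of other testis cells stood beside these values as follows. By the same test 6.51% of all detected genes were higher and 5.31% lower. Leydig cells, which make testosterone, had 2 of 6 detected markers higher and none lower, with a median log2 fold change of 0.38. Hsd3b1 and Hsd17b3, enzymes of testosterone synthesis, rose by 0.64 (adjusted p = 0.0118) and 0.45 (adjusted p = 0.0249). The mean log2 signal of the Leydig list ran from 11.43 to 11.94 in WT and from 11.80 to 12.16 in null samples. Macrophage markers had 2 of 7 higher, Mrc1 by 0.41 (adjusted p = 0.0127) and Cd163 by 0.58 (adjusted p = 0.0346), with a median of 0.28 and means of 8.43 to 8.87 in WT and 8.85 to 9.05 in null samples. The mean of the Sertoli cell members ran from 10.22 to 10.38 in WT and from 10.49 to 10.67 in null samples. With an array left out, Hsd3b1 and Mrc1 always passed, Hsd17b3 passed in 4 of 9 runs (adjusted p up to 0.0783) and Cd163 in 3 (up to 0.0995). The part of Leydig cells and macrophages in the rise of the Sertoli cell genes was not tested.

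Germ cell markers had medians near 0. Their limma counts stand beside 11.8% of all detected genes that passed. Round spermatid markers had a median log2 fold change of -0.08 and elongating spermatid markers one of -0.01, with 0 of 10 and 0 of 12 passing in limma. At an unadjusted limma p under 0.05 there were 1 and 0 of them. By the methods' t-test after Benjamini-Hochberg adjustment 0 passed in both lists at an adjusted p under 0.05. The mean log2 signal of round spermatid markers ran from 12.79 to 12.89 in WT and from 12.72 to 12.80 in null samples, and that of elongating spermatid markers from 14.06 to 14.10 and from 14.04 to 14.09, near the upper end of the arrays. Of 10 spermatocyte markers, the recombinase gene Dmc1 passed and was lower, at -0.33 (adjusted p = 0.0141), with a median of -0.03 for the list. Spermatogonial markers, among which Etv5 and Dmrt1 are listed too, had a median of 0.07, and 1 of 10 passed. That gene was Kit, the receptor of Kitl, with 8.76, 8.17, 8.91 and 8.63 in WT and 9.44, 9.03, 9.10, 9.35 and 9.44 in null samples on the log2 scale and a rise of 0.65 (SE 0.15, adjusted p = 0.0259). Kit passed in 5 of 9 runs with an array left out (adjusted p up to 0.0663), and Dmc1 in all 9. Gfra1, a receptor gene of the spermatogonial list, did not pass, at -0.17 (adjusted p = 0.153). The paper lists Gfra1 among its higher genes, and no other probe set of Gfra1 is given here.

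Peritubular myoid markers had a median log2 fold change of -0.10 and lymphocyte markers one of 0.02, with 0 of 6 and 0 of 5 passing in limma. At an unadjusted limma p under 0.05 there were 0 and 1, and 0 passed by the methods' t-test after Benjamini-Hochberg adjustment. Endothelial markers had a median of 0.08, and 1 of 6 passed, beside 11.8% of all detected genes. The marker that passed was Vwf, at -0.37 (adjusted p = 0.013). Of 6 epididymal markers 2 were detected, with a median of 0.03. None passed in limma, at an unadjusted limma p under 0.05 or by the methods' t-test after Benjamini-Hochberg adjustment.

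**Figure D5:**
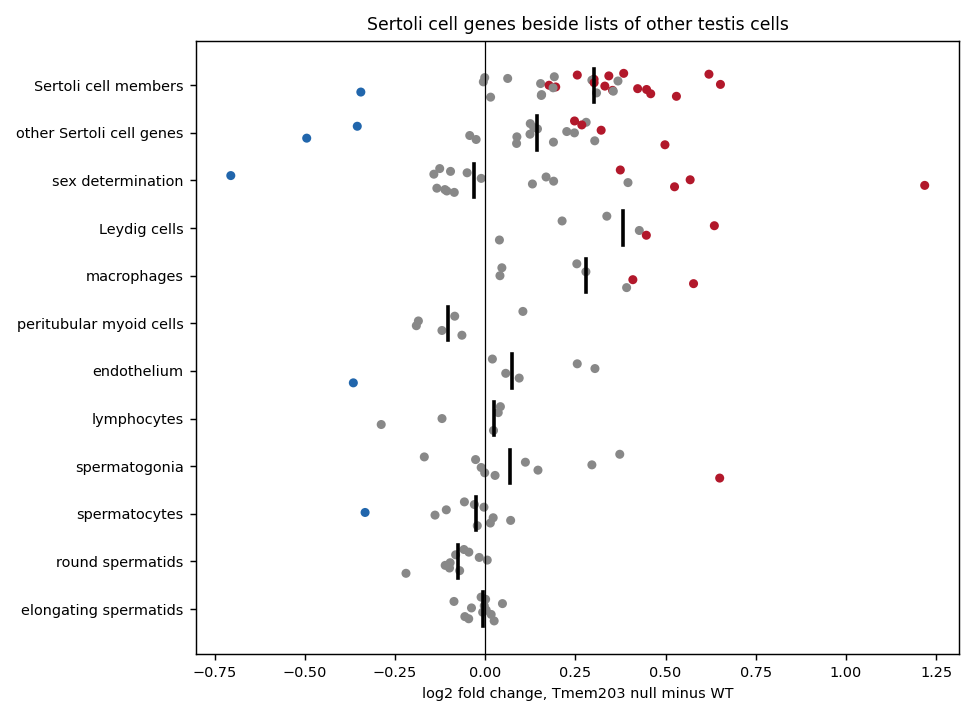
Log2 fold changes (null minus WT) of the detected genes of each list, 1 point a gene, with a black bar at the median of the list. Red and blue mark an adjusted p under 0.05. The medians are 0.30 for the Sertoli cell members, 0.14 for other Sertoli cell genes, 0.38 for Leydig cells and 0.28 for macrophages, and those of spermatocytes and spermatids lie between -0.08 and -0.01.

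RNA quality moved with genotype to a small extent. The 3′ minus 5′ log2 signal of the Gapdh control probe sets, a measure of RNA degradation, was 0.93 ± 0.01 (SD) in the 4 WT arrays and 0.85 ± 0.04 in the 5 null arrays. All null arrays were below all WT arrays (exact two-sided permutation test, p = 0.0159, the smallest that 4 against 5 samples allow). Its part in the differences of the Sertoli cell genes was not tested.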

How the data were processed

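Whole-testis RNA (4 WT and 5 null samples) was hybridised to Affymetrix arrays, 1 array a sample. What was deposited is a table of log2 signals, which the authors made with Robust Multichip Average (background adjustment, quantile normalization, summarization), keeping all arrays. Limma is named, without a version, in the submitters' processing notes. Groups were taken from the labels. Scan dates were not used here, so batches could not be tested.

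Each probe set was fitted with limma 3.58.1 (lmFit, eBayes; R 4.3.3), null minus WT, with Benjamini-Hochberg adjustment over 45037 probe sets and 64 control probe sets left out. A gene was read by its single-gene probe set with the highest mean over 9 arrays, and it passed when its adjusted p was under 0.05. Changes of 1.5-fold or more were counted separately. The number of arrays limits the precision. Symbols of the platform annotation were updated through Entrez identifiers to RefSeq of GRCm38.p6 (34741 of 34945 probe sets). Promoter windows are from RefSeq, and Python 3.11.15 joined and drew the tables. Motifs were searched in 32851 windows of 250 bases.

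The members and all lists were chosen with earlier results of these data known, and lists are described by counts and medians, without a set test. Every member is named, with the value of every sample for those that passed and for the transcription factors and receptor, and up to 4 genes of each other list by smallest p. The procedure was tested on simulated data with changes of 1.5-fold or more. Smaller changes, like those of most members, were not simulated. As alternatives, 2 scalings, array weights, another variance model, detected probe sets alone, the choice of probe set, cross-hybridizing probe sets, a replicate block, the loss of each array and the methods' t-test were tried.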

Additional observations from a re-analysis of the deposited data

Results flagged for a closer look

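In 60 groups of samples (the WT and the null samples of each member and of Tmem203), 5 had a highest or lowest sample set apart from the rest by a gap that is large beside the range of the group. By chance about 1 in 20 groups would. In 4 of the 5 it was null replicate 1 that stood above the other null samples. Gata1 was 9.70 there on the log2 scale, with the others between 9.31 and 9.42. Dmrt1 was 10.09, with the others between 9.98 and 10.01. Nr0b1 was 10.15, with the others between 9.73 and 9.84, and without null replicate 1 its log2 fold change was -0.01 in place of 0.06. Shbg was 10.05, with the others between 9.78 and 9.85, and Shbg passed without this array too. In the remaining group, the WT samples of Serpina5, replicate 4 was low at 11.07, with the others between 11.29 and 11.32, and Serpina5 passed without it.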

How the results depend on the processing

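The median log2 fold changes of the transcription factors and receptor (0.24 to 0.33), of the secreted products (0.22 to 0.31) and of the cytoskeletal products (0.28 to 0.38) kept their sign under every alternative, as did Tmem203 (-0.75 to -0.65) with its call. Of the 16 members that passed, 5 passed under every alternative (Sox9, Shbg, Eppin, Serpina5 and Mro) and 8 with each array left out. Counts of members that passed were more open to the processing. Of the Sertoli cell members 10 passed (9 higher, 1 lower) with each array centred on its median, 9 to 17 with an array left out, and 2 with a 1.5-fold change required as well. With the share of all detected genes in brackets, the count was 16 with quantile normalization (11.8%), 20 with another variance model (15.4%) and 19 with array weights (13.3%). It was 18 with the detected probe sets alone (13.7%) and 18 with the probe set of smallest p (14.9%). It was 15 with probe sets open to cross-hybridization left out (11.6%) and 11 by the methods' t-test after Benjamini-Hochberg (7.71%). At an unadjusted p under 0.01 by that test 17 passed, and the share of all genes was not counted. Over all detected genes, calls went from 1910 to between 1105 and 2011 with an array left out. Of the other Sertoli cell genes 10 passed with another variance model, 2 to 6 with an array left out and 0 at 1.5-fold. Of the sex determination genes 3 passed on centring and by the t-test after Benjamini-Hochberg, 2 to 5 with an array left out and 2 at 1.5-fold.

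Replicate numbers are shared by the groups, but same-numbered samples did not deviate together (r = -0.07, 0.10, -0.04 and -0.00 for numbers 1 to 4 over detected probe sets), so they were not taken as pairs. With the replicate block, where null replicate 5 has no partner, 6 members passed, all higher, 1 of the other Sertoli cell genes and 1 of the sex determination genes, and 692 of all detected genes (4.28%). Ctsl, Vim and Krt8 lost their calls in this fit alone (adjusted p = 0.0509, 0.0609 and 0.0536).

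Of 550 values of single members compared, 23 changed sign, all of genes whose difference was near 0. Dmrt1 was 0.0361 with array weights and 0.0073 with the replicate block, and -0.051 to 0.0541 with an array left out. Nr0b1 was -0.009 to 0.138 with an array left out. Amh was 0.0087 with quantile normalization, 0.0107 with array weights, and -0.0227 to 0.0211 with an array left out. Drd4 was -0.0168 on centring, -0.0198 on quantile normalization, -0.0511 as the median over its probe sets, -0.12 with the probe set of smallest p or with probe sets ending in _x_at or _s_at left out, -0.0336 with the replicate block and -0.0665 to 0.095 with an array left out. The cause of these changes was not tested.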
